A study of Strophostyles helvola with 12 samples.

Results

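The comparison described here is that of unstressed roots between 2 genotypes of Strophostyles helvola, the sand bean, a wild relative of common bean. It used 6 of the 12 sequenced libraries, chosen by their labels alone: Beach control (3 libraries) and Inland control (3 libraries). The Beach genotype came from a beach in Wilmington, North Carolina, and the Inland genotype from Missouri. In both control groups, seedlings labelled as 10 d old grew in potting mix soil and received 50 mL of water per day without salt. Whole roots were taken at 3 h, 24 h and 7 d, and each library was made from 3 plants, 1 from each time, so a value averages over these times. Each genotype stands for a single collection, and a difference between the groups is one between these collections and not between beach and inland plants in general. The other 6 libraries were the salt-treated roots of the same genotypes, Beach treatment with 400 mM NaCl and Inland treatment with 200 mM NaCl, and they are used here only as a second set of libraries for the genes found in the controls.

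Plants from different habitats can differ in the transcripts that their roots hold before any stress is applied, and such standing differences are separate from the changes that salt induces. They form the baseline against which a salt response in either genotype is read. Root RNA of seedlings comes from many cell types, from the root cap to the vascular tissue, and fewer cells of a type cannot be told apart from less RNA per cell. The sand bean reads were aligned to the common bean genome, so each gene is named by its common bean identifier. The files do not pair these identifiers with gene names, so no function is given for any gene, and root marker genes could not be looked up to check the tissue label. A read adds to a count only if it aligned to a single place. A low count in one genotype can therefore come from few transcripts, or from reads that aligned nowhere in common bean or to several places. These cannot be told apart here.

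Library totals ran from 30296680 to 32189394 counts in Beach control and from 33790610 to 39389601 in Inland control, and did not overlap. The difference of the means was -4426948 counts, Beach minus Inland (two-sided exact permutation test, p = 0.1, the smallest that 3 against 3 libraries allow, or 0.2 after Benjamini-Hochberg adjustment over 4 library measures). Genes with at least 1 count numbered 23042 to 23094 in Beach control and 23206 to 23361 in Inland control. Genes above 5 CPM (counts scaled to a library total of 1e6) numbered 15804 to 15887 in Beach control and 15761 to 15844 in Inland control, and these ranges overlapped. Over the 16132 genes tested, the distance between libraries on the log2 CPM scale was 124.5 ± 5.58 between genotypes (SD, 9 pairs), against 45.1 ± 15.8 among Beach control libraries and 34.6 ± 6.34 among Inland control libraries (SD, 3 pairs each). The closest pair of libraries from different genotypes lay 118 apart, and the most distant pair within a genotype lay 54.4 apart.

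Roots of the 2 genotypes differed at 877 of the 16132 genes tested, or 5.44%. Of these, 362 genes (2.24%) were higher in Beach and 515 (3.19%) were lower in Beach. A gene had to differ by 2-fold or more with an fdr no higher than 0.05, the fdr being the Benjamini-Hochberg adjusted p of edgeR's quasi-likelihood test. Most of the root transcriptome stayed within a narrow band. The median log2 fold change of Beach over Inland was -0.00, the 5th and 95th percentiles were -0.86 and 0.62, and 93.8% of genes differed by less than 2-fold. The 3 libraries of one genotype did not overlap with the 3 of the other for any of the 877 genes, while 42.2% of all genes tested had no such overlap. With the fdr limit alone, 2506 genes (15.5%) passed, of which 1101 (6.82%) were higher in Beach and 1405 (8.71%) lower. With the fold change itself tested against 2, 386 passed, 173 higher and 213 lower.

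**Figure D1:**
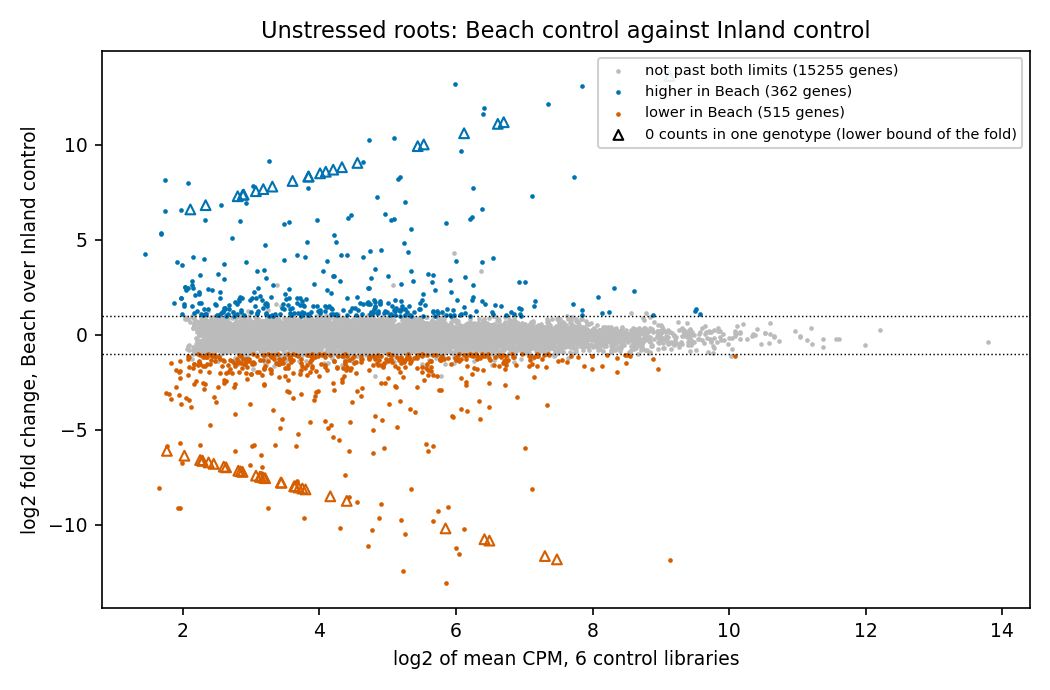
Each point is a gene. The x axis is the log2 of its mean CPM in the 6 control libraries, and the y axis is the log2 fold change of Beach over Inland control. Blue marks the 362 genes higher in Beach and orange the 515 lower in Beach, and dotted lines mark a 2-fold difference. Triangles are genes with 0 counts in one genotype, drawn at the lower bound of their fold.

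The 877 genes spanned a wide range of sizes. Between 2-fold and 4-fold lay 216 genes higher and 328 lower in Beach, and between 4-fold and 16-fold lay 65 higher and 89 lower. At 16-fold or more stood 81 genes higher and 98 lower in Beach, together 179 genes. In 53 of these 179, one genotype had no count in any control library, and the fold of each was at least 68.7 by the limit of 3 counts per library that a count of 0 allows. This limit covers counting error only. The share of genes that passed was lower at higher abundance. The filter bears on this, as a gene with a low mean can enter when only a single genotype is above 5 CPM. The lowest class therefore favours genes that differ, and the trend was not read further. It was 9.96% among 2740 genes with a mean under 10 CPM, 4.65% among 11086 genes from 10 to 100 CPM, 3.89% among 2264 genes from 100 to 1000 CPM, and 1 of 42 genes at 1000 CPM or more. Replicates of the largest differences were nearly as close as those of genes under 2-fold. In the genotype with the higher mean, the median coefficient of variation was 9.70% for the genes at 16-fold or more, 14.9% from 4-fold to 16-fold and 19.7% from 2-fold to 4-fold, against 9.38% for genes under 2-fold. Where Beach had the higher mean, it was 12.7% at 16-fold or more and 10.5% under 2-fold. Where Inland had it, these values were 8.7% and 7.68%.

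The genes that passed held a small part of the RNA. Those higher in Beach took 2.55 ± 0.320% of the counts in Beach control and 0.632 ± 0.0419% in Inland control (SD, n = 3 each). Those lower in Beach took 1.16 ± 0.0318% of the counts in Beach control and 3.63 ± 0.432% in Inland control. The genes were selected for these differences, so the shares only show how much of a library they make up.

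The 4 genes named here had the largest fitted rise or fall among genes with 10 or more counts in every control library, a condition met by 313 genes higher and 444 lower in Beach. They were chosen for their size and show the extremes, not the typical difference. Phvul.005G095900, on common bean chromosome 5, had 425, 417 and 425 CPM in the Beach control libraries, against 0.939, 1.72 and 1.09 CPM in the Inland control libraries. Its log2 fold change was 8.33 (standard error 0.24, edgeR fdr = 1.22e-06). Phvul.004G095400, on chromosome 4, had 135, 163 and 154 CPM in Beach control, against 0.704, 0.651 and 0.635 CPM in Inland control, and 7.75 was its log2 fold change (standard error 0.14, edgeR fdr = 2.84e-07). Both genes stood above 100 CPM in each Beach library and near 1 CPM in each Inland library, with no overlap.

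The other 2 genes were lower in Beach. Phvul.005G081500, on chromosome 5, had 0.746, 1.27 and 1.12 CPM in Beach control, against 291, 252 and 284 CPM in Inland control, which gave -8.11 as the log2 fold change (standard error 0.20, edgeR fdr = 6.92e-07). Phvul.005G092600, also on chromosome 5, had 1.06, 0.572 and 0.693 CPM in Beach control, against 55.3, 53.8 and 54.1 CPM in Inland control, which gave -6.20 as the log2 fold change (standard error 0.18, edgeR fdr = 1.43e-06). The low values of all 4 genes rest on 18 to 58 counts per library, so the reads were few but present in every library. In the order of identifiers along their chromosome, the 4 genes lay at 51.4%, 53.3%, 43.7% and 49.7% of the way, in the order given.

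The same genes were then read in the salt-treated libraries. Phvul.005G095900 averaged 374 ± 35.0 CPM in Beach treatment and 1.37 ± 0.0642 CPM in Inland treatment (SD, n = 3 each), and Phvul.004G095400 averaged 117 ± 3.50 CPM in Beach treatment and 0.717 ± 0.221 CPM in Inland treatment. Phvul.005G081500 averaged 1.26 ± 0.0827 CPM in Beach treatment and 196 ± 49.8 CPM in Inland treatment, and Phvul.005G092600 averaged 0.524 ± 0.145 CPM in Beach treatment and 46.7 ± 0.830 CPM in Inland treatment. The change of the genotype ratio with salt did not pass for any of the 4 (edgeR interaction fdr between 0.0959 and 0.604). The widest change was that of Phvul.005G081500, at 0.87 on the log2 scale.

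**Figure D2:**
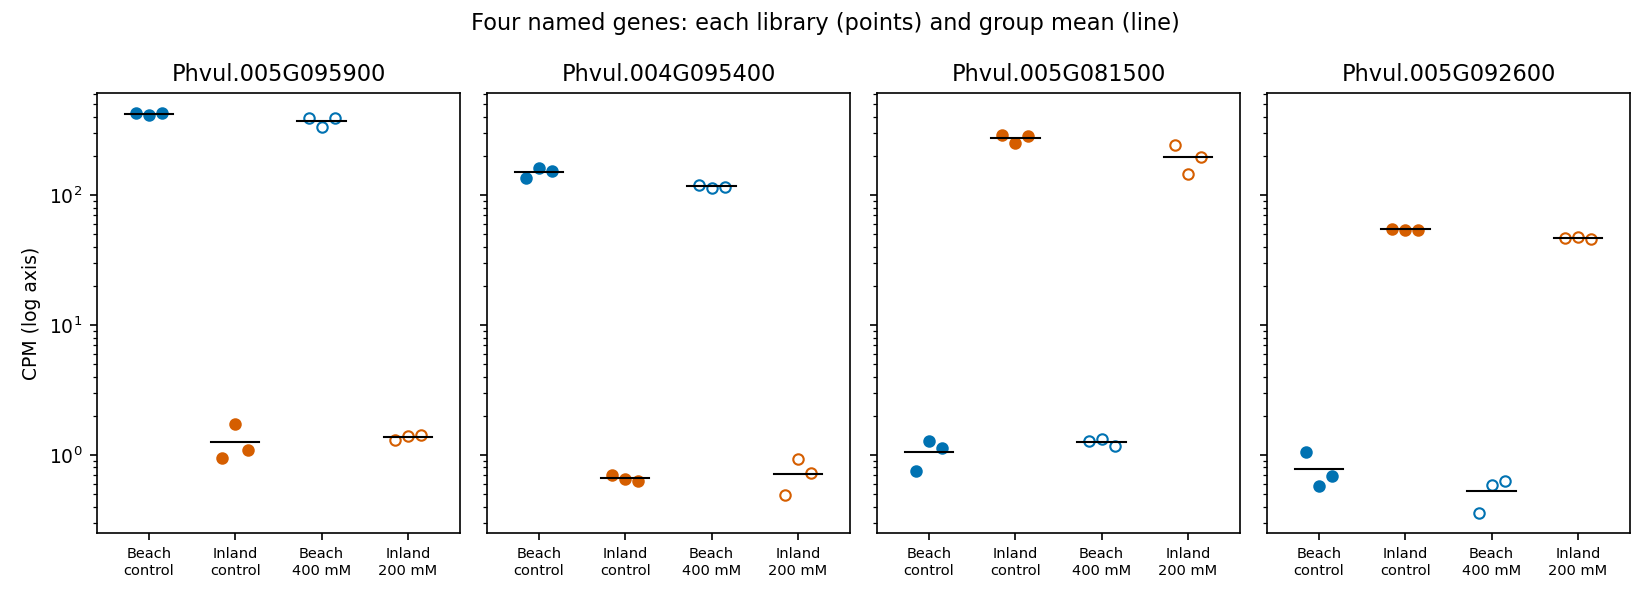
Each panel is a named gene, and each point is a library, with the group mean as a line. The y axis is CPM on a log axis. Filled points are control libraries and open points are treated libraries, blue for Beach and orange for Inland. In each panel the genotypes lie far apart in both conditions, with no overlap.

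Some genes had counts in the control roots of only one genotype. Among genes that averaged 5 CPM or more in one genotype and had 0 counts in all 3 control libraries of the other, 25 were found in Beach only and 32 in Inland only. Mean levels of the 25 Beach genes ran from 5.44 to 1118 CPM with a median of 28.6. Given the limit of 0.0888 CPM that no count in Inland control allows, they were at least 61.3-fold to 12588-fold higher in Beach. The most abundant of them, on chromosome 10, had 1072, 1118 and 1163 CPM in Beach control and no read in any of the 6 Inland libraries. Mean levels of the 32 Inland genes ran from 5.21 to 357 CPM with a median of 17.8, and against a limit of 0.0990 CPM they were at least 52.6-fold to 3600-fold lower in Beach. The most abundant, on chromosome 5, had no read in any of the 6 Beach libraries and 278, 424 and 367 CPM in Inland control. Of the 25 and 32 genes, 22 and 31 passed the filter on low values, and each of these also passed both limits. They were chosen for this difference, so those passes are no further evidence.

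The treated libraries had no part in that choice, and the pattern held in them. Of the 25 genes found in Beach only, 17 had no count in any Inland treatment library either, and the other 8 had at most 5 counts in a library. Of the 32 genes found in Inland only, 23 had no count in any Beach treatment library, and the other 9 had at most 2 counts in a library. In the genotype that had them, the mean in treated roots was within 2-fold of that in control roots for 23 of the 25 Beach genes and 29 of the 32 Inland genes. The ratio of treated to control ran from 0.355 to 4.68 for the Beach genes and from 0.397 to 1.76 for the Inland genes. The same share over all genes was not taken, so these genes are not shown to be steadier than others. Their median was 23.4 CPM in Beach treatment and 28.6 CPM in Beach control, and 22.4 CPM in Inland treatment and 17.8 CPM in Inland control.

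**Figure D3:**
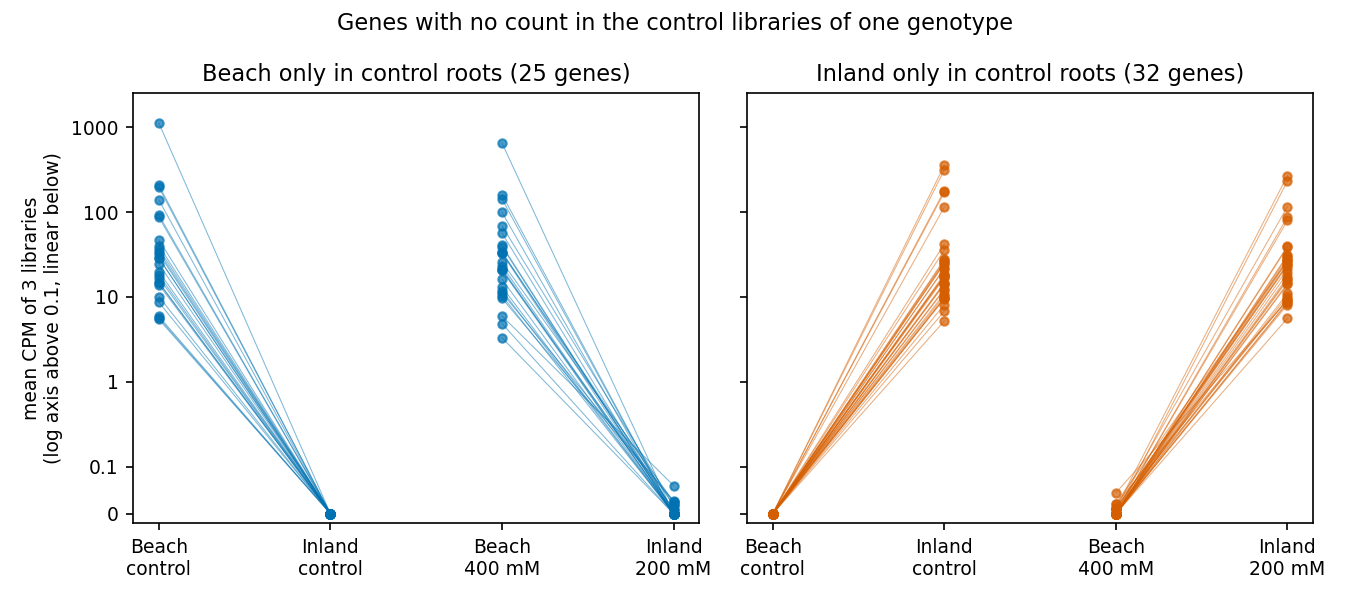
Each point is the mean CPM of a gene over the 3 libraries of a group, and lines join the same gene in Beach and Inland within a condition. The y axis is logarithmic above 0.1 CPM and linear below. The 25 genes of the left panel and the 32 of the right were chosen on the control libraries, and in the treated libraries they again lie near 0 in the genotype that had no count.

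The genes that differed were not spread evenly along the chromosomes. In a common bean identifier, the digits after the first point name the chromosome, and the last digits rise along it. The identifiers of each of the 11 chromosomes were divided, in this order, into 10 equal parts. They show the order of genes in common bean, which sand bean need not share in full. In parts 4 to 7, the middle of the chromosomes, 466 of 6229 genes tested (7.48%) passed both limits, against 408 of 9875 (4.13%) in the outer parts. The contrast was sharper for large differences. At 16-fold or more, 148 genes (2.38%) passed in the middle and 29 (0.294%) in the outer parts, so the middle held 83.6% of them and 38.7% of the genes tested. Of the 56 genes found in one genotype only and placed on a chromosome, 47 lay in the middle. Between 2-fold and 16-fold, 5.11% of genes passed in the middle and 3.84% in the outer parts. Part 7 on its own was near the outer parts, with 4.31% of its tested genes past both limits and 0.507% at 16-fold or more. These are descriptions, since no test over neighbouring genes was made, and the parts and the 16-fold class were set after values were seen.

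Within most chromosomes the large differences sat mainly in 1 or 2 neighbouring parts, and the place varied. On chromosome 11, 17 of the 91 genes tested in part 6 (18.7%) passed at 16-fold or more, and all 24 such genes of the chromosome lay in the middle parts. On chromosome 10, 13 of 67 genes in part 5 (19.4%) did so. On chromosome 5 it was 13 of 90 genes in part 5 (14.4%), on chromosome 4 it was 11 of 78 in part 6 (14.1%), on chromosome 1 it was 15 of 148 in part 4 (10.1%), and on chromosome 7 it was 14 of 140 in part 5 (10.0%). Chromosome 6 differed from these, as 12 of its 16 large differences lay in part 1, at the start of the chromosome, where 112 genes were tested. On chromosome 2 all 5 lay in part 3. Chromosome 9 had only 2 such genes among 1715 tested. Counting every gene past both limits, part 6 of chromosome 4 stood highest, with 30 of 78 genes, 19 higher and 11 lower in Beach.

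Both directions took part in these regions, with 199 genes higher and 267 lower in Beach in the middle parts. The median of mean CPM was 28.2 for the middle genes and 29.2 for the outer ones, and 57.5% of middle and 60.8% of outer identifiers passed the filter. The share that passed the filter was lower in several of the parts named above, with 43.6% in part 6 of chromosome 4, 40.6% in part 5 of chromosome 10, 41.9% in part 6 of chromosome 11 and 48.4% in part 5 of chromosome 5. The median of mean CPM was 18.7 in part 6 of chromosome 4. Whether this share or level has a part in the pattern was not tested part by part. Within each class of abundance the middle genes passed more often, with 12.9% against 7.98% under 10 CPM, 6.57% against 3.42% from 10 to 100 CPM, and 5.09% against 3.15% at 100 CPM or more. In the treated libraries, compared on their own, 739 of 6277 genes tested (11.8%) passed both limits in the middle. In the outer parts 821 of 9932 (8.27%) did. At 16-fold or more, 150 genes passed in the middle (2.39%) and 46 in the outer parts (0.463%). All 166 genes at 16-fold or more in control that were tested there passed both limits again. The 2 comparisons thus share many genes and are not separate observations of the arrangement. Among genes that had not passed in the controls, 5.45% passed in treated roots in the middle and 5.23% in the outer parts.

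**Figure D4:**
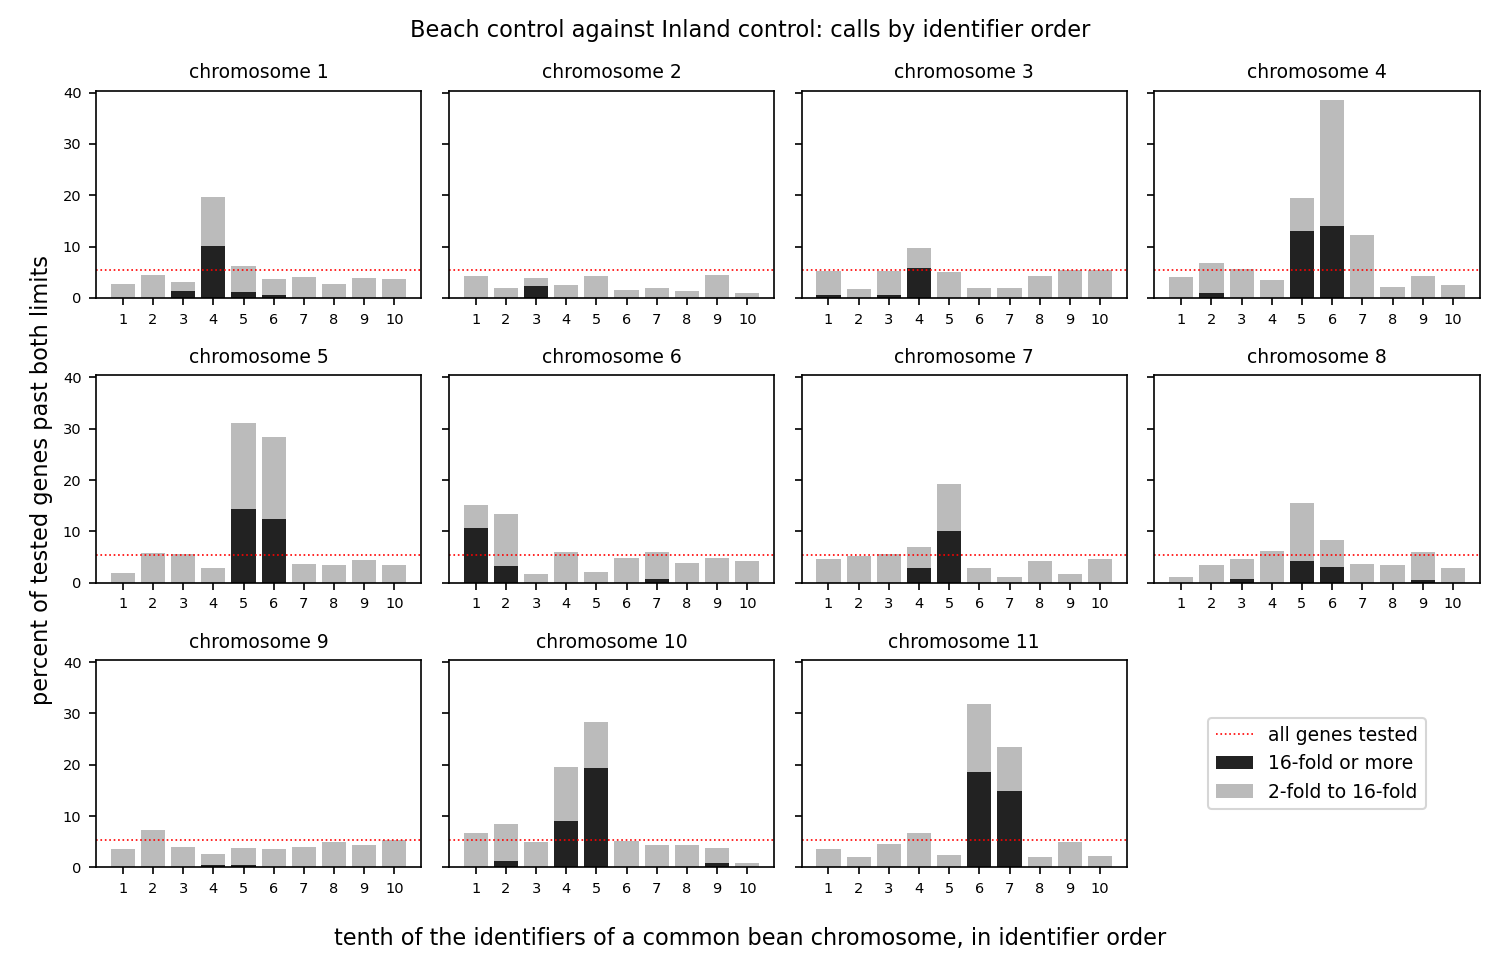
Each panel is a common bean chromosome, with its identifiers divided in order into 10 equal parts on the x axis. Bars give the percent of tested genes past both limits in Beach control against Inland control, black for 16-fold or more and grey for 2-fold to 16-fold. The dotted line is the 5.44% of all genes tested. Black bars gather mainly in 1 or 2 neighbouring parts, mid-chromosome on most and at the start of chromosome 6, while chromosome 9 has only 2 such genes.

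Genes that passed also tended to have neighbours that passed. Of the 877 genes, 142 (16.2%) had a next or previous identifier that passed too, against 5.52% of the tested genes that did not pass. In 49 neighbouring pairs both genes differed in the same direction and in 28 pairs in opposite directions, the one higher and the other lower in Beach. Both members differed by 16-fold or more in 8 of the 49 pairs and in 4 of the 28. In the middle parts lay 29 of the 49 pairs and 20 of the 28. A part with many genes that passed holds more such pairs for that reason alone. The 5.52% is over all parts, so neighbours were not separated from the pattern by position. The longest run in one direction held 4 identifiers in a row on chromosome 1, each with no count in any Beach control library and with 8.67 to 19.5 CPM in the Inland control libraries. In the treated libraries these 4 genes together had a single non-zero value among the Beach libraries, at 0.0326 CPM, and 14.7 to 28.4 CPM in Inland. Neighbouring genes of one family can share reads, and reads that aligned to several places were not counted. What this did to the counts of neighbouring genes was not tested.

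The salt-treated roots gave a second comparison of the genotypes in libraries that the control comparison did not use, at doses that differed between them. Of the 877 genes, 787 were also tested there, and the rest had fewer than 3 treated libraries above 5 CPM. A difference lost because levels fell in treated roots is thus not counted. Of these, 522 (66.3%) passed both limits in the same direction and 7 in the opposite direction, while 9.64% of all 16237 genes tested passed in either direction. The share rose with the size of the control difference. From 2-fold to 4-fold in control it was 244 of 493 genes (49.5%), from 4-fold to 16-fold 112 of 128 (87.5%), and at 16-fold or more 166 of 166. A larger difference can shrink further and still pass the 2-fold limit, so a rise is partly built into that limit. In control these classes held 544, 154 and 179 genes, and the genes not tested in treated roots are outside these shares. The 7 genes in the opposite direction were all from the first class. By direction, 233 of the 326 genes higher in Beach control passed as higher in Beach treatment, beside 4.55% of all genes tested, and 289 of the 461 lower in Beach control passed as lower, beside 5.09%.

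Among the 787 genes tested in both conditions, the sizes of the differences were alike for the larger classes. For genes from 4-fold to 16-fold higher in Beach, the median log2 fold change was 2.90 in treated roots and 2.81 in control roots, and for those lower in Beach it was -2.54 in treated and -2.67 in control roots. With genes at 0 counts placed at their lower bound, the medians at 16-fold or more were 7.13 in treated and 7.24 in control roots for genes higher in Beach, and -7.43 in treated and -7.15 in control roots for genes lower in Beach. From 2-fold to 4-fold, the medians were 1.04 in treated and 1.29 in control roots for genes higher in Beach, and -0.92 in treated and -1.28 in control roots for genes lower in Beach. Genes selected in one set of libraries tend to have smaller values in another, and the treated roots differed in dose, so the shift in this class was not read further. The spread between replicates was also smaller in treated roots, with a common biological coefficient of variation of 0.115 in treated and 0.148 in control libraries.

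**Figure D5:**
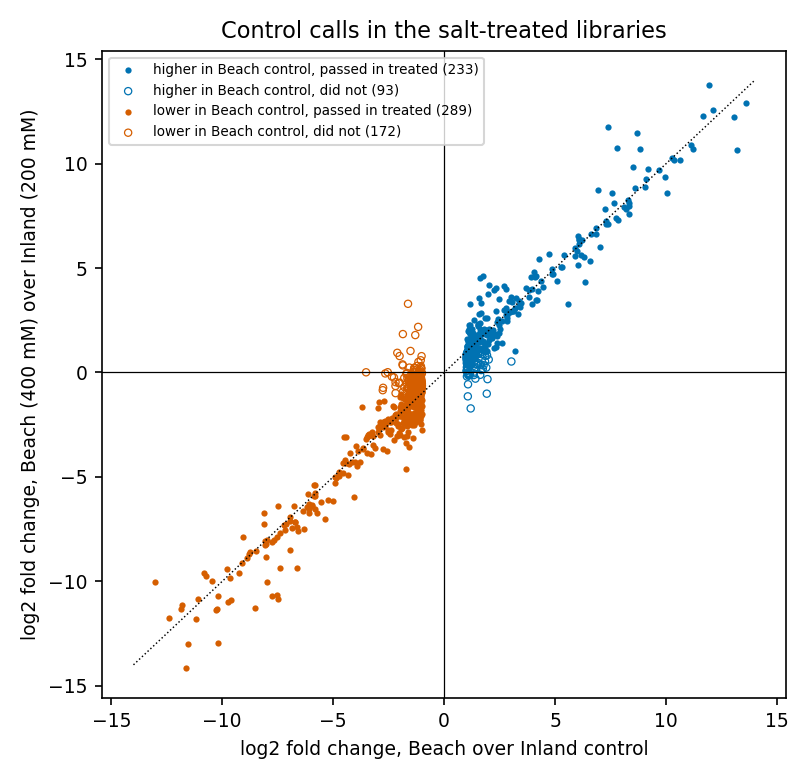
The 787 genes that passed in control roots and were tested in treated roots, by their log2 fold change of Beach over Inland in control (x axis) and in treated libraries (y axis). Filled points passed in treated roots in the same direction, 233 higher and 289 lower in Beach, and open points did not. Genes with 0 counts in a genotype are at their lower bound, and the dotted line marks equal values.

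Beach control replicate 1 stood apart most from the others of its group, and Inland control replicate 1 did so to a lesser degree. In the paper, each has the lowest share of uniquely mapped reads in its control group, by a small margin. The RNA integrity number, a measure of how intact the RNA was, is lowest there for Inland control replicate 1 but not for Beach control replicate 1. Whether either measure bears on these libraries standing apart was not tested. Beach control replicate 1 differed by over 2-fold from both other Beach control libraries at 292 genes, 77 above and 215 below them. The number of genes apart in this way was 20 and 11 for Beach control replicates 2 and 3, and 112, 17 and 21 for Inland control replicates 1, 2 and 3. Among the 877 were 53 of the 292 genes and 22 of the 112, while 5.44% of all genes tested were. Genes with such a library apart were thus more frequent among the 877. The biological coefficient of variation was 0.169 in Beach control and 0.124 in Inland control. Without Beach control replicate 1, 808 genes passed, and 733 of the 877 were among them. With each of the 6 libraries left out in turn, on the same tested genes, between 674 and 1011 genes passed, the lowest without Inland control replicate 3 and the highest without Inland control replicate 1. At least 653 of the 877 (74.5%) passed again in each case and none changed sign. The genes at 16-fold or more numbered 178 to 181 in these 6 fits, of which 83.0% to 84.3% lay in the middle parts of the chromosomes.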

How the data were processed

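Root RNA of 12 libraries was sequenced, and the 6 control libraries were compared here. The authors trimmed reads with Trimmomatic 0.36, aligned them to the common bean genome Pvulgaris_218_v1.0 with STAR and used featureCounts to count reads aligned to 1 place over exons, with no strand option named. The versions of STAR and featureCounts are not given in the sources used here. The authors deposited raw counts for 27191 identifiers, without normalization.

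The filter of the authors' code, more than 5 CPM in 3 or more libraries, was applied to the 6 control libraries and left 98.96% of their counts. Library sizes were scaled by TMM (factors 0.958 to 1.04) and genotypes were compared with edgeR 4.0.16 in R 4.3.3 (quasi-likelihood test, Benjamini-Hochberg adjustment). The 6 treated libraries were fitted apart in the same way, and the interaction in a fit of all 12. Standard errors were derived from the F statistic. CPM values are counts scaled to a library total of 1e6. DESeq2 1.42.0 served as an alternative, and Python 3.11.15 and matplotlib 3.10.9 drew the figures. Other alternatives covered the test of the authors' code, normalization, filters, limits, depth, a replicate block and each library left out.

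Named genes were the 2 with the largest rise and the 2 with the largest fall in Beach past both limits, with 10 or more counts in each control library and no overlap. Gene lists by function were planned but not used, as no annotation was at hand. The comparison, lists and rules were chosen with earlier results of these data known. The parts of chromosomes and the 16-fold class were set after values were seen.

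Pairs of replicates gave a chi-square of 10.7 to 54.6 for each degree of freedom, beyond sampling noise, and each was counted as a sample of its own. On data simulated for the control comparison, with 15708 genes tested, 96 of 100 genes changed by 1.5 on the log2 scale and 100 of 100 changed by 3 were recovered, with 4 false calls. The simulation gave both genotypes the same spread for each gene and had no library apart from its group. Only genes with an Inland mean of 5 CPM or more were changed. These rates therefore need not hold for the real libraries.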

Additional observations from a re-analysis of the deposited data

How the results depend on the processing

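The 4 named genes kept their direction and passed both limits in all 15 alternative fits run for them. A lower filter tested more genes and passed more. At 1 CPM, 1327 genes passed, 552 higher and 775 lower in Beach, and 831 also passed in treated roots. Without a filter these counts were 1667, 705, 962 and 1066, with 338 genes at 16-fold or more, 71.1% of them in the middle parts. With the fdr limit alone 2506 passed (1101 higher, 1405 lower), and with the fold tested against 2, 386 passed (173 higher, 213 lower). With parts drawn over tested identifiers only, an alternative added after seeing the data, the middle held 76.8% of the differences of 16-fold or more. With 2-fold to 16-fold genes alone, the middle share was 1.33 times the outer share, against 1.81 times over all sizes. At a minimum mean of 1 CPM, 53 genes were found in Inland only, and with up to 3 counts allowed in the other genotype, 39 in Beach only.

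With genes filtered again after leaving out a library, 459 to 808 passed, 160 to 354 higher and 177 to 478 lower in Beach, and with tested genes held fixed 674 to 1011, 299 to 384 and 375 to 651. By construction, a minimum of 3 libraries removes genes expressed only in a group of which 2 libraries remain. The lowest values were those without Inland control replicate 3 (459 genes), Inland control replicate 2 (506 genes), and, for genes higher in Beach, Beach control replicate 1 (160), 2 (200) and 3 (218). For genes lower in Beach they were 177 without Inland control replicate 3 and 207 without replicate 2, where 282 and 299 genes were higher in Beach, so that the direction with more genes turned round. The mean distance between genotypes was 140.2 with a filter of 1 CPM and 110.5 over the 500 most variable genes, where that within genotypes was 15.8. With the other tests and scalings, 868 to 1074 genes passed, the highest in a fit of all 12 libraries. More genes were lower than higher in Beach in each, but the imbalance varied. It was 404 higher and 464 lower with library totals and no TMM, and 380 higher and 615 lower with edgeR's exact test.

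The labels give both genotypes the same replicate numbers. The deviations of libraries with the same number correlated at -0.138, -0.168 and -0.0236, so the numbers were not used as pairs, and with the replicate number as a block 800 genes passed, 349 higher and 451 lower in Beach, with 493 also passing in treated roots.

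Depth differed between the genotypes along with their identity, and 886 genes passed once every library was thinned to the depth of the smallest.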

Other observations

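The most abundant transcripts were largely shared. Of the 10 genes with the highest mean CPM in each genotype, 7 were common to both, and of the 100 highest, 77 were. Among the 100 genes with the highest mean over all 6 control libraries, 3 passed as higher and 1 as lower in Beach. Over all genes tested, 2.24% passed as higher and 3.19% as lower, so these few genes were not read as a trait of abundant transcripts. The 10 most abundant genes of a library took 3.94 ± 0.725% of the counts in Beach control and 4.44 ± 0.247% in Inland control (SD, n = 3 each), a difference of -0.504 percentage points (two-sided exact permutation test, p = 0.4, unchanged by adjustment over 4 library measures). The single most abundant gene had 6520, 15170 and 15827 CPM in Beach control replicates 1, 2 and 3, against 17228, 14959 and 14995 CPM in Inland control. Its log2 fold change was -0.40 and did not pass (edgeR fdr = 0.459), and the low value came from Beach control replicate 1, the library that also stood apart over many other genes.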
